A study of Mus musculus with 288 samples.

Results

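Zymosan wells were the wells of bone marrow-derived macrophages (BMDMs) given Zymosan, 1 of the 11 stimuli of the series, on the 3 plates titled DMSO, dCA1 and Brd. They were chosen by their titles alone, and they numbered 24 of the 288 wells of the series. They were read against the 24 unstimulated wells (NoStim) of the same plates and times. All groups shared the same cells: BMDMs of C57BL/6 mice of 12 weeks, grown with M-CSF for 7 days. The DMSO plate received the solvent, the dCA1 plate (here the dCA plate) dCA at 100 nM and the Brd plate (here the BRD-6989 plate) BRD-6989 at 1 uM, both inhibitors for 24 h before the stimulus. The labels name both compounds as inhibitors of CDK8, a kinase of the Mediator complex. Wells were collected 15, 30, 45, 60, 90, 120, 150 and 180 min after the stimulus, with 1 well for each plate, stimulus and time. These times are those of the titles, while the treatment text speaks of 0 to 4 h. The 24 Pam3cys and 24 TDB wells, both named as in the labels, served for direct comparisons. RNA was read by 3' digital gene expression, which counts distinct random barcodes (UMI) per gene, and by TF-seq, in which each transcription factor reporter is read through its own sequence tag.

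Zymosan is a particle made from the cell wall of baker's yeast, rich in beta-glucan and mannan. Macrophages sense it through the Toll-like receptor TLR2 and through the beta-glucan receptor Dectin-1, encoded by Clec7a. TLR2 signals through the adaptor MyD88 and Dectin-1 through the kinase Syk, and both routes lead to NF-kB and to MAP kinases, which switch on chemokines, cytokines and the inhibitors of the same signal. Interferon-induced genes form a second arm in macrophages, in which IRF factors and secreted type I interferon act on genes that carry an interferon-stimulated response element (ISRE).

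Promoters of genes that rose are shown first, as the 250 bases before the start listed in RefSeq (build GRCm38.p6), 5' to 3' on the strand of the gene. Cxcl1, Cxcl3, Il1b and Irg1 (Acod1 in RefSeq) had the smallest p-values with an entry among the 20 rises named for their fold change, and Ifit1 was the interferon-induced gene among the 3 response markers followed on every plate, with Cxcl1 and Il1b. Capitals mark matches on either strand to the NF-kB (kB) motif or to the ISRE, searched as GAAA, any 2 bases and GAAA.
Cxcl1 (chr5:90890995-90891244, plus strand): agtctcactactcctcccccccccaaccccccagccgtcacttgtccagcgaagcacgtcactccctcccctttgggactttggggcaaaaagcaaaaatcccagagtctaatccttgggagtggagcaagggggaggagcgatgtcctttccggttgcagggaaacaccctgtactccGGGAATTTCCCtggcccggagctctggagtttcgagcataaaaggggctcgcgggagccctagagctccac
Cxcl3 (chr5:90785851-90786100, plus strand): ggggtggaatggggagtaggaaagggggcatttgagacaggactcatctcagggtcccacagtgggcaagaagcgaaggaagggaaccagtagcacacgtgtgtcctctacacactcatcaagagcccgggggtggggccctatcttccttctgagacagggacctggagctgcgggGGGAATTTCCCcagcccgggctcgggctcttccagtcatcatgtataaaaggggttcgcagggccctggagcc
Il1b (chr2:129371140-129371389, minus strand): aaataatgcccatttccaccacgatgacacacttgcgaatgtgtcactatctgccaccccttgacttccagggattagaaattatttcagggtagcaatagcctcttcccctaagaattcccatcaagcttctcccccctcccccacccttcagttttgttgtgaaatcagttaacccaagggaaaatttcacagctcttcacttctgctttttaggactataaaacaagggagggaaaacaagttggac
Irg1 (chr14:103046762-103047011, plus strand): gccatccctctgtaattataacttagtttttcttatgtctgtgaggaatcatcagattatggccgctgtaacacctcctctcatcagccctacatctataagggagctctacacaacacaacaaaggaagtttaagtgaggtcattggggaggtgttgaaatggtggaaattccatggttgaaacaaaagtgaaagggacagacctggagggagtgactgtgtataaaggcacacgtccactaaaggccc
Ifit1 (chr19:34640639-34640888, plus strand): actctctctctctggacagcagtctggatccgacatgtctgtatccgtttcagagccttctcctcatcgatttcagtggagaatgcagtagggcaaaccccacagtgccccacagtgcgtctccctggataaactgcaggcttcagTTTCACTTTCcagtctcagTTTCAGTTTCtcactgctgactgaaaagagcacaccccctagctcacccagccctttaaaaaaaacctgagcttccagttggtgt
In Cxcl1 the capitals are a run 71 to 61 bases before the start, where matches on both strands overlap. Cxcl3 held the same 11 letters 73 to 63 bases before its start, and Ifit1 held 2 ISRE matches on the opposite strand, 104 to 95 and 85 to 76 bases before its start. The listed gene span of Il1b reaches past the start used here, so the last bases of its window lie inside the gene. The windows of Il1b and Irg1 held no match to the kB motif, the ISRE, the AP-1 letters TGANTCA or the CRE letters TGACGTCA.

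Libraries were shallow, so many genes rested on few molecules. The 288 wells held 37542 to 127223 UMI (median 77485), and Rn45s, the ribosomal RNA precursor, took 22.9 to 68.3% of them. Levels are given in CPM, UMI per 1000000 UMI without Rn45s, and 1 UMI was worth 18.2 to 37.5 CPM in the 30 wells of 60 to 180 min. In those wells the Zymosan and NoStim UMI totals were 73627 ± 18368 and 81626 ± 19621 (mean ± SD, n = 15 each, exact permutation p = 0.261, two-sided). The Rn45s share was 59.0% ± 4.74 against 56.5% ± 3.19 on the DMSO plate, 45.3% ± 8.26 against 52.0% ± 5.35 on the dCA plate and 35.8% ± 11.7 against 47.4% ± 4.85 on the BRD-6989 plate (Zymosan against NoStim, n = 5 each). Its part in the results was tested only as a covariate. All 9 macrophage markers had UMI, and their summed level ran from 5920 to 9324 CPM in NoStim and from 4538 to 9480 CPM in Zymosan wells. Markers of T and NK cells, B cells, mast cells, erythroid cells and stroma had 0 UMI. The neutrophil list summed to 11 UMI in each group and the dendritic cell list to 1 and 0 UMI. One well stood apart, most clearly for Ccl5. The DMSO Zymosan well of 15 min held 20 UMI of Ccl5, 8 of Il1b and 17 of Ifit1. The dCA plate held 1, 0 and 1 and the BRD-6989 plate 0, 0 and 5. At 30 min the DMSO Zymosan well also held 5 UMI of Il1b and 17 of Ifit1. The dCA plate then held 0 and 7 and the BRD-6989 plate 0 and 2. Each plate carried 1 pretreatment and Zymosan always sat in the same plate column, so plate and pretreatment cannot be told apart, nor can stimulus and column. The labels name no separate cultures or animals, so p-values measure the spread between wells, which may be technical.

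The first comparison set the 15 Zymosan wells of 60 to 180 min against their 15 NoStim partners, with plate and time as blocks. Chemokines, cytokines, NF-kB inhibitors and interferon-induced genes rose, and transcription factors and MAP kinase phosphatases were among the fewer genes that fell. In edgeR's quasi-likelihood test, 152 of 5653 genes tested passed an adjusted p of 0.05 (Benjamini-Hochberg), 129 higher (2.28% of those tested) and 23 lower (0.407%). The median log2 change of all genes was -0.10. In bulk wells, fewer cells that express a gene and less of its RNA per cell cannot be told apart. All 129 rises had the same sign on all 3 plates, as had 22 of the 23 falls, and 86 of the rises exceeded 2 on the log2 scale. Of the 152, 71 were called under each of the 10 other settings over all plates, and 63 in each of 23 fits that left out 1 plate, time or pair of wells. One of the 10 settings tested only the 2544 genes averaging 3 UMI per well or more, so genes below that could not be among the 71. Without the BRD-6989 plate 92 genes were called, and without the dCA plate 101. With the Rn45s share as a covariate the count was 128.

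**Figure D1:**
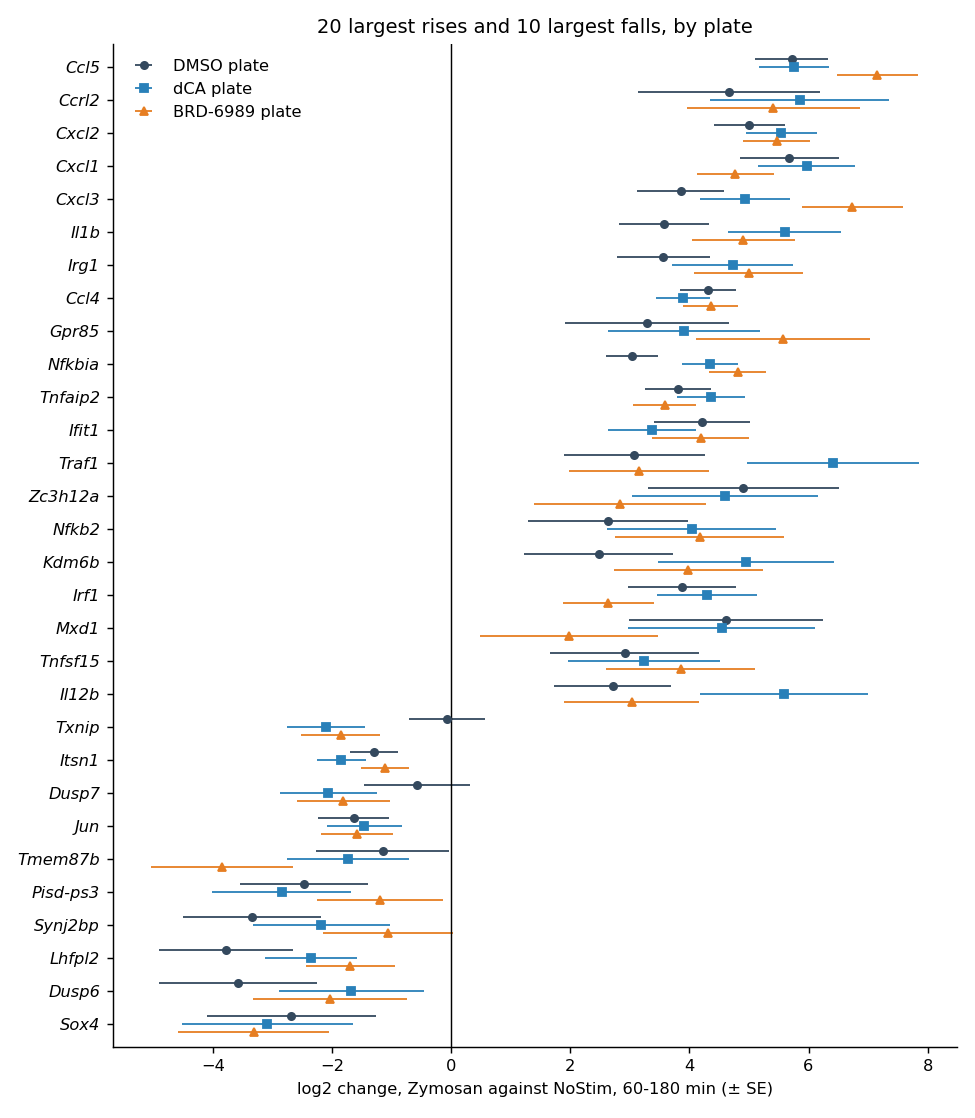
Log2 change, Zymosan against NoStim over 60 to 180 min, of the 20 largest named rises and the 10 largest named falls, by plate (points, with bars of 1 SE, n = 5 wells a side). The rises lay right of 0 on every plate, and Txnip lay at -0.08 on the DMSO plate.

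CC chemokines, which draw monocytes and lymphocytes, gave the largest rise. Ccl5 (chr11:83525778-83530518, GRCm38.p6) was at 0, 0 and 68.4 CPM in NoStim (lowest, median and highest of 15 wells) and at 0, 694 and 2938 CPM in Zymosan. It was higher than its partner in 14 of 15 pairs, and 1 Zymosan well, on the dCA plate at 60 min, held none. Its log2 change was 6.10 ± 0.36 (± SE, adjusted p = 8.92e-40 in edgeR). Ccl4, of the same chemokine family, ran at 63.3, 282 and 617 CPM in NoStim and 2629, 5766 and 10251 CPM in Zymosan. These ranges did not overlap, and the log2 change was 4.18 ± 0.26 (adjusted p = 3.14e-11). The monocyte attractants Ccl7 and Ccl12 rose by 2.98 ± 0.26 and 3.25 ± 0.47. Ccrl2, a non-signalling chemoattractant receptor, had 0 UMI in the 15 NoStim wells and 78 UMI in Zymosan, with at least 1 in every well. Against a floor of 3 UMI over the NoStim group it was at least 27.5-fold higher. It passed the filter of a mean of 1 UMI per well only through its Zymosan UMI. Of 10 tested members of the 13 genes in the CC chemokine list, 8 rose and 0 fell, with a median log2 change of 3.02.

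The CXC chemokines that attract neutrophils rose together. Cxcl1 (chr5:90891245-90893121) held 771, 838, 59.1, 289.6 and 442 CPM in the DMSO Zymosan wells of 60, 90, 120, 150 and 180 min. The same times gave 556, 1038, 505, 468 and 292 CPM on the dCA plate and 1096, 1445, 959, 805 and 588 CPM on the BRD-6989 plate. Over the 15 NoStim wells only 9 UMI of Cxcl1 were counted, and their highest value was 134 CPM, at 150 min on the BRD-6989 plate. The Zymosan wells were highest at 90 min on all 3 plates, and each lay above its NoStim partner. The log2 change was 5.25 ± 0.42 (adjusted p = 9.04e-25). Cxcl2 was the more abundant, at 26.8, 109 and 309 CPM in NoStim and 1212, 6083 and 10931 CPM in Zymosan, again without overlap (5.36 ± 0.33 log2). Cxcl3 rose by 5.01 ± 0.46. These were the 3 called of 6 tested in the 12-gene list, while Cxcl10, Cxcl16 and Pf4 did not pass (1.23, 0.56 and 0.31).

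Secreted cytokines also rose. Il1b (chr2:129364569-129371164), the precursor of interleukin-1 beta, held 106, 925, 798, 579 and 1414 CPM over the 5 late times in the DMSO Zymosan wells. The values were 30.9, 129.8, 649, 444 and 902 CPM on the dCA plate and 0, 529.7, 73.8, 751 and 851 CPM on the BRD-6989 plate. At 60 min the Zymosan values were still within the NoStim range of 0 to 138 CPM, and from 150 min they lay above it on all 3 plates. The log2 change was 4.41 ± 0.49 (adjusted p = 9.61e-13, higher in 13 of 15 pairs). Tnf, the inflammatory cytokine, was at 31.7, 140.2 and 341 CPM in NoStim and 211, 912 and 1902 CPM in Zymosan. The 2 ranges overlapped at the ends, and the log2 change was 2.55 ± 0.26 (adjusted p = 6.20e-17). Il12b, the p40 subunit of interleukins 12 and 23, rose from 14 to 123 UMI (3.33 ± 0.63 log2), and the TNF family ligands Tnfsf9 and Tnfsf15 rose by 3.05 ± 0.53 and 3.35 ± 0.73. Tnfsf15 was no longer called without the wells of 180 min (2.58, adjusted p = 0.121). Of 10 tested of 26 listed cytokines 7 rose and 0 fell (median log2 3.19). Il10, the anti-inflammatory cytokine, fell under the filter of a mean of 1 UMI per well, with 14 UMI in Zymosan and 1 in NoStim.

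Genes of the NF-kB pathway rose at several levels. Nfkbia (chr12:55489409-55492647), the inhibitor that holds NF-kB in the cytosol and is itself induced by it, was at 0, 267 and 814 CPM in NoStim and 2484, 4153 and 6515 CPM in Zymosan. The groups did not overlap, and the log2 change was 4.01 ± 0.31 (adjusted p = 1.27e-09). Tnfaip2, a TNF-induced gene, was at 0, 196 and 561 CPM in NoStim and 1643, 4028 and 5713 CPM in Zymosan. It likewise showed no overlap between the groups. Nfkbiz, the nuclear IkB that co-activates secondary response genes, rose by 2.70 ± 0.41, the NF-kB subunit gene Nfkb2 by 3.57 ± 0.79, the TRAF adaptor Traf1 by 3.87 ± 0.71 and the mRNA-decay nuclease Zc3h12a by 3.86 ± 0.86. Nfkb2 lost its call without the BRD-6989 plate (adjusted p = 0.0729). Tnfaip3, the deubiquitinase A20, was at 1.00 ± 0.32 and did not pass (adjusted p = 0.0654). With each pair of wells as a block it was at 1.12 and passed (adjusted p = 0.0289). In the 25-gene list, 9 of 21 tested members rose and 0 fell, with a median log2 change of 1.62.

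Immediate early factors mostly moved upward, with 12 of 13 tested above 0 on the log2 scale. Klf6, a zinc finger factor, rose by 1.45 ± 0.19 and Junb, an AP-1 subunit, by 1.65 ± 0.39, while Jun, the founding AP-1 subunit, fell. Jun was at 45.6, 294 and 1273 CPM in NoStim and 0, 108 and 532 CPM in Zymosan. The ranges overlapped, with 12 of 15 pairs lower in Zymosan and a log2 change of -1.57 ± 0.36 (adjusted p = 0.00129). Without the wells of 120 min, when NoStim Jun was at its highest, the change was -1.26 and was not called (adjusted p = 0.132). Maff, a small MAF factor, had 0 UMI in NoStim and 36 in Zymosan, at least 12.7-fold higher. It passed the filter on low counts only through its Zymosan UMI. Neither Maff nor Dusp2, given below, was called in every fit that left out a plate, time or pair. Of 13 tested of 25 listed factors 4 rose and 1 fell, with a median of 1.45. Among MAP kinase phosphatases and mRNA decay factors 3 of 12 tested rose and 1 fell (19 listed, median 0.61). Those that rose were Gadd45b, a stress adaptor of MAP kinases (2.75 ± 0.33), Zfp36, the factor tristetraprolin that destabilises cytokine mRNA (2.21 ± 0.43), and Dusp2 (3.91 ± 0.88). Dusp6, the phosphatase of ERK, fell by 2.39 ± 0.72 (adjusted p = 0.0426). It was called in only 7 of 23 fits that left out a plate, time or pair. Among others it lost its call without the DMSO plate (adjusted p = 0.352) and with each pair as a block (0.0617).

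Interferon-induced genes rose in the late wells. Ifit1 (chr19:34640889-34650009), an antiviral RNA-binding protein, was at 106, 723, 946, 1817 and 2622 CPM over the 5 late times on the DMSO plate. It was at 247, 156, 1766, 1754 and 3077 CPM on the dCA plate and at 27.4, 313, 148, 2843 and 2532 CPM on the BRD-6989 plate. NoStim wells held 0 to 197 CPM, and the Zymosan wells of 150 and 180 min lay above them on all 3 plates. The log2 change was 3.87 ± 0.44 (adjusted p = 5.88e-07, higher in all 15 pairs). Rsad2 (chr12:26442743-26456452), the antiviral enzyme viperin, ran at 0, 359.6 and 1012 CPM in NoStim and 411, 3430.2 and 13846 CPM in Zymosan. Although the ranges overlapped, it was higher in 15 of 15 pairs (3.29 ± 0.48 log2). Cmpk2, a neighbour of Rsad2 that makes pyrimidine nucleotides, rose by 2.96 ± 0.46, the antiviral GTPase Mx1 by 3.46 ± 0.53 and the transcription factor Irf1 by 3.51 ± 0.48. Of 43 tested of 44 listed interferon response genes 12 rose and 0 fell. The median log2 change of the list was 1.14, and 41 of the 43 lay above 0.

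Some receptors and adaptors for yeast particles also rose. Tlr2 was at 0, 54.3 and 193 CPM in NoStim and 109.6, 263 and 463 CPM in Zymosan, higher in all 15 pairs (2.33 ± 0.50 log2, adjusted p = 4.30e-04), but it was not called without the BRD-6989 plate (1.99, adjusted p = 0.0716). The co-receptor Cd14 rose by 1.35 ± 0.25, the C-type lectin Clec4e (Mincle) by 2.19 ± 0.32 and Malt1, a protease downstream of Dectin-1, by 2.62 ± 0.71. Cd36, a scavenger receptor that helps TLR2, fell by 0.87 ± 0.22 (adjusted p = 0.00509). Neither Malt1 nor Cd36 was called in every fit that left out a plate, time or pair. Clec7a itself was read by only 30 UMI in Zymosan and 27 in NoStim and did not pass (-0.25, adjusted p = 0.958). At 180 min its 3 Zymosan wells held 40.5 to 265 CPM and its NoStim wells 0 to 22.8 CPM, while at each other time the groups overlapped. Of 21 tested of 26 listed receptors and adaptors 4 rose and 1 fell, with a median of 0.15, beside 2.28% higher and 0.407% lower among all genes. Enzymes of inflammatory mediators also rose: Irg1 (4.22 ± 0.51), which makes itaconate, and Ptgs2 (109 against 12 UMI), the prostaglandin synthase COX-2, were the 2 called of 5 tested in the 12-gene list. Without the wells of 180 min Ptgs2 was not called (2.39, adjusted p = 0.187). Among the 10 genes linked to Dectin-1 and NFAT, 3 were tested and Ptgs2 alone was called. Cybb, the catalytic subunit of the phagocyte oxidase, rose by 1.21 ± 0.25, as 1 of 7 members tested. Il1b was the 1 called of 8 tested in the list for interleukin-1 and the inflammasome.

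Several surface and survival genes rose. The adhesion receptor Icam1 rose by 2.64 ± 0.28, the early activation marker Cd69 by 3.29 ± 0.65 and Cd83, a marker of mature antigen-presenting cells, by 1.20 ± 0.20, among 5 rises and 0 falls in 13 tested (18 listed, median 1.09). Cd69 was not called in every fit that left out a plate, time or pair. The kinase gene Pim1 reached at most 433 CPM in NoStim and lay above that in every Zymosan well, with a median of 1135 CPM. It rose by 3.06 ± 0.25, and with Cflar, an inhibitor of caspase-8 (1.00 ± 0.17), it made up the 2 rises among 10 survival genes tested. Sdc4, a heparan sulfate proteoglycan, was at 457, 996 and 1609 CPM in NoStim and 1760.2, 3554 and 4586 CPM in Zymosan (1.75 ± 0.13 log2). In all, 8 of the 5653 genes had Zymosan and NoStim wells that did not overlap, each of them higher: Sdc4, Pim1, Cxcl2, Ccl4, Nfkbia, Tnfaip2, Ccl7 and Ccrl2.

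The 23 falls were fewer than the rises. Sox4 (chr13:28948919-28953699), a developmental transcription factor, was at 0, 91.1 and 241 CPM in NoStim and 0, 0 and 48.2 CPM in Zymosan, with 63 and 6 UMI. It was lower in 13 of 15 pairs (-3.09 ± 0.77 log2, adjusted p = 0.00468), and was not called without the BRD-6989 plate (adjusted p = 0.372). Itsn1, an endocytic scaffold, fell from a median of 743 to 309 CPM (-1.42 ± 0.24 log2, adjusted p = 1.73e-06). Lhfpl2 fell by 2.29 ± 0.48 (adjusted p = 2.85e-04). Itsn1 and Lhfpl2 were the 2 of the 10 named falls that kept their call in every fit over all plates. The others among the 10 lost it in at least 1, and several in most. Of 23 fits that left out a plate, time or pair, Dusp6, Pisd-ps3 and Dusp7 were called in 7 each. Synj2bp was called in 8, Tmem87b in 10, Txnip in 13, Sox4 in 20 and Jun in 21. Txnip, a thioredoxin inhibitor, was at -0.08 on the DMSO plate. It was at -2.10 ± 0.66 on the dCA plate and -1.86 ± 0.66 on the BRD-6989 plate. Polr2a, the largest subunit of RNA polymerase II, had 32 UMI in NoStim and 0 in Zymosan, at least 10.1-fold lower. It passed the filter on low counts only through its NoStim UMI. Of the macrophage identity list, the transcription factor Maf (-0.68 ± 0.17) and the G-protein regulator Rgs2 (-1.11 ± 0.28) fell, among 16 tested of 20. The LXR target Mylip fell by 2.84 ± 0.75, as 1 of 16 tested of 17 in the cholesterol list. None of Polr2a, Maf, Rgs2 and Mylip was called in every fit that left out a plate, time or pair.

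Lists for housekeeping programmes were read beside the 2.69% of all 5653 genes that were called either way. No gene was called among 18 tested of 19 for glycolysis and hypoxia (median log2 -0.09), 20 of 23 for the lysosome (-0.08) or 4 of 7 for the Mediator kinase module (0.03). At that share, lists of this size would hold few calls or none, so the absence of calls does not set them apart. The lysosomal protease Ctsl was at 489.8, 3863 and 6817 CPM in NoStim and 444, 4045 and 5632 CPM in Zymosan, with a log2 change of -0.01. In the NRF2 and iron list 2 of 11 tested rose, the thioredoxin reductase Txnrd1 (1.53 ± 0.46) and the autophagy receptor Sqstm1 (1.04 ± 0.23). Neither was called in every fit that left out a plate, time or pair. Cdk8 was not tested, with 13 UMI in Zymosan and 15 in NoStim.

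Motif matches in the promoters are given as a description. The kB motif was found in 3.74% of all 27025 RefSeq promoter windows, in 4.57% of the 4555 genes tested that had a window and in 13.9% of the 108 genes that rose and had one. Those 15 genes included Cxcl1, Cxcl2, Cxcl3, Nfkbia, Nfkb2, Irf1, Tlr2, Ccrl2 and Sdc4. For the ISRE the shares were 3.05, 3.25 and 12.96%, and the 14 rises with a match included Ifit1, Rsad2, Gbp2, Gbp3 and Ifi205. For the AP-1 letters they were 6.85, 4.06 and 9.26%, and for the CRE 1.60, 3.01 and 2.78%. Both strands were searched. Cybb, Gbp2, Mmp13, Mndal and Rsad2 held both an AP-1 and an ISRE match. A match describes these letters, not a bound site.

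The order of events was followed over all 8 times, with 3 wells a side at each. Nfkbia lay above NoStim from the first time on, though narrowly at 15 min. There its Zymosan wells held 859, 472 and 268 CPM (32, 22 and 11 UMI, DMSO, dCA and BRD-6989 plates). Its NoStim wells held 141, 261 and 146 CPM (6, 9 and 6 UMI). Its Zymosan means were 533, 1934, 3608, 4475, 5075, 3962, 4818 and 3890.3 CPM at 15, 30, 45, 60, 90, 120, 150 and 180 min. Its NoStim means stayed between 143 and 458 CPM, and all 3 Zymosan wells lay above all 3 NoStim wells at every time. Cxcl2 and Tnfaip2 separated in the same sense from 30 min, and Ccl4, Cxcl1 and Cxcl3 from 45 min. Cxcl2 means were 218, 1371, 4489, 8547, 7375, 4239, 4062 and 4514 CPM, highest at 60 min. Tnf was highest at 90 min, with 1639.7 ± 289 CPM (mean ± SD, n = 3) against 109 ± 133 in NoStim, and at 180 min its groups overlapped again.

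Ccl5, Ifit1, Il1b and Irg1 separated only from 90 min on. The Zymosan means of Ccl5 were 186, 28.0, 9.66, 108, 562, 619.9, 1931 and 2506 CPM, of which the value at 15 min came almost wholly from the DMSO well described above. Those of Ifit1 were 199.9, 191, 96.9, 127, 397, 953, 2138 and 2744 CPM. Both were highest at the last time. Egr1, an immediate early zinc finger factor, had means of 68.0, 139.5, 190.0 and 160.0 CPM at 15 to 60 min and 0 at 90, 120 and 150 min. Egr1 lay above all NoStim wells at 45 and 60 min, and Fos, its AP-1 counterpart, at 45 min. At 180 min the groups of Egr1 overlapped. Its late minus early difference, a contrast described below, did not pass (-2.61 ± 2.36, adjusted p = 0.915 in edgeR). Among the 129 genes that rose, the highest Zymosan mean fell at 180 min for 58, at 150 min for 30, at 120 min for 10, at 90 min for 21, at 60 min for 7 and at 45 min for 3.

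**Figure D2:**
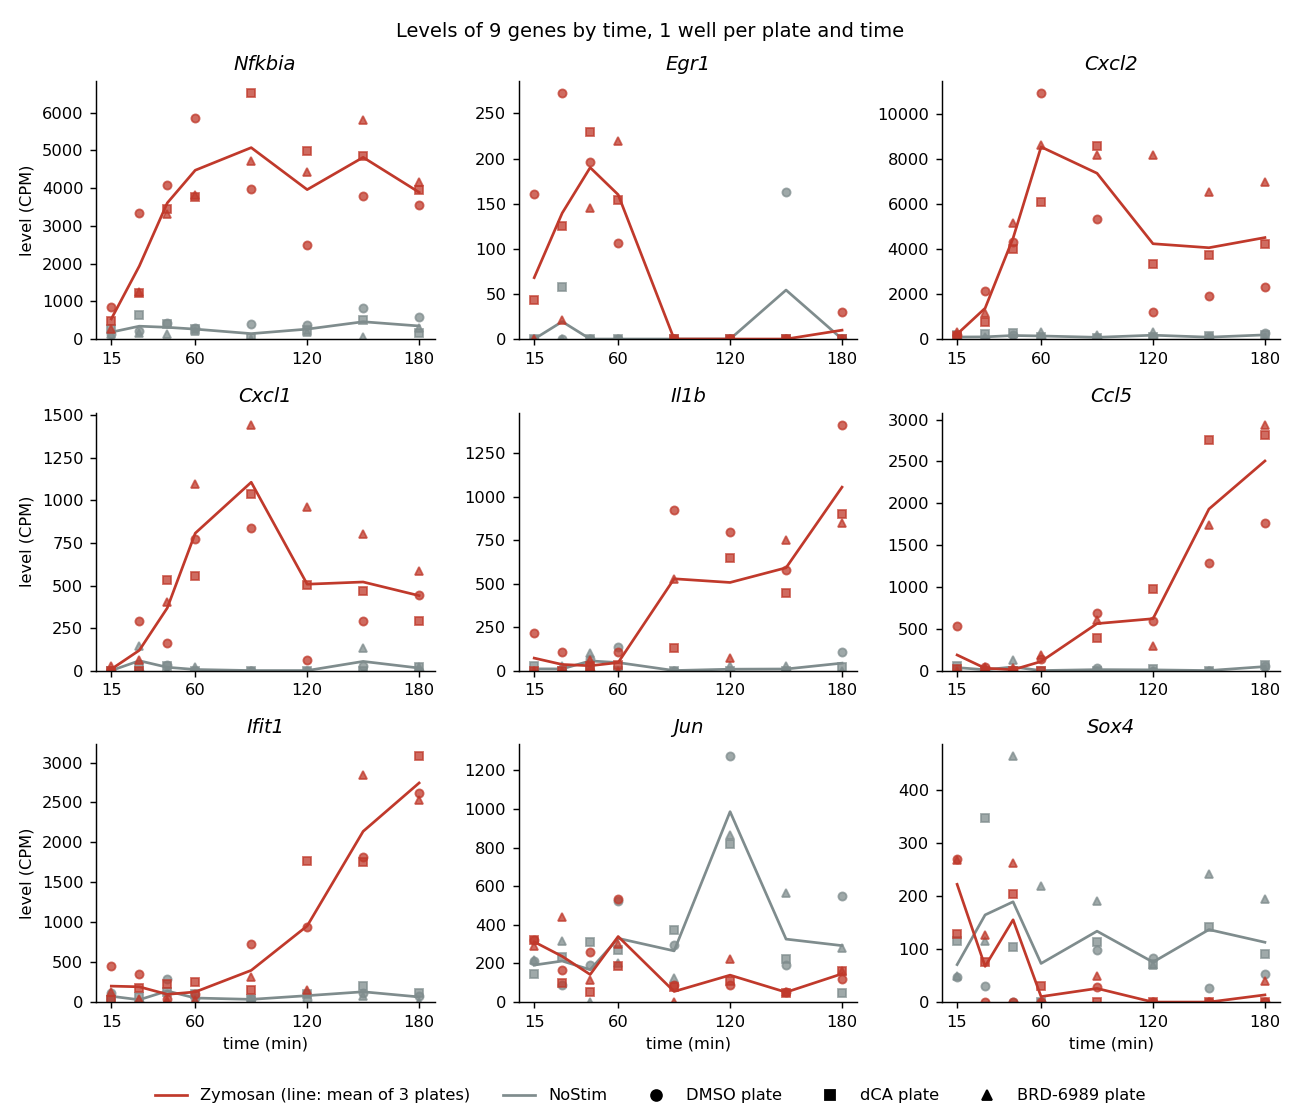
Levels in CPM against minutes after the stimulus for 9 genes, with 1 point per plate and lines through the means of 3 wells (Zymosan and NoStim). Nfkbia lies above NoStim at each time, though narrowly at 15 min. Egr1 is seen at 15 to 60 min, and Ccl5 and Ifit1 climb to 180 min.

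At 15 to 45 min, 4 of 5867 genes were called in edgeR, all higher (0.0682%), and 285 had an unadjusted p under 0.05. They were Nfkbia (2.64 ± 0.22, adjusted p = 5.96e-29), Zfp36 (4.70 ± 0.87, 1.90e-04), Ccl4 (1.30 ± 0.27, 0.00346) and the RNA-binding protein Hnrnpu (1.18 ± 0.26, 0.0115). Hnrnpu differed by time. It was at 1960, 1544 and 1704 CPM in the Zymosan wells of 15 min (DMSO, dCA and BRD-6989 plates) and at 329, 406 and 389 CPM in NoStim, while at 45 min the Zymosan wells held 294, 433 and 261 CPM. Without the pair holding the DMSO well that stood apart, an alternative chosen after seeing the data, 14 genes were called. Hnrnpu was then at 1.00 (adjusted p = 0.150), and without all wells of 15 min 28 genes were called, without those of 30 min 10 and without the BRD-6989 plate 1. Egr1 was at 3.86 ± 1.05 (47 against 2 UMI, adjusted p = 0.0813) and did not pass.

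Whether the late response differed from the early one was tested as a contrast over all 48 wells. It was called for 14 of 5741 genes, 10 with a higher late change (0.174%) and 4 with a lower one (0.0697%). Ccl5 differed by 5.17 ± 0.99 (adjusted p = 0.00173), with a change of 0.53 early and 6.10 late. Ccl4 differed by 2.83 ± 0.49, Ccl7 by 2.05 ± 0.38, Tnfaip2 by 2.50 ± 0.54 and the cell cycle inhibitor Cdkn1a by 2.09 ± 0.37. Itsn1 differed by -2.13 ± 0.47, with 0.65 early and -1.42 late. For Nfkbia, Cxcl2 and Tnf the difference did not pass (1.39 ± 0.48, 1.62 ± 0.67 and 0.76 ± 0.80, adjusted p of 0.359, 0.554 and 0.93). Nor did it for Ifit1 or Il1b (2.77 ± 0.81 and 3.72 ± 1.13, adjusted p of 0.158 and 0.153). Without the dCA plate 3 genes were called, without the BRD-6989 plate 7, without the wells of 45 or of 180 min 8 each and without those of 60 min 25. Without the DMSO pair of 15 min, chosen after seeing the data, 13 were called, 10 of them among the 14, and Ccl5 was at 6.71.

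**Figure D3:**
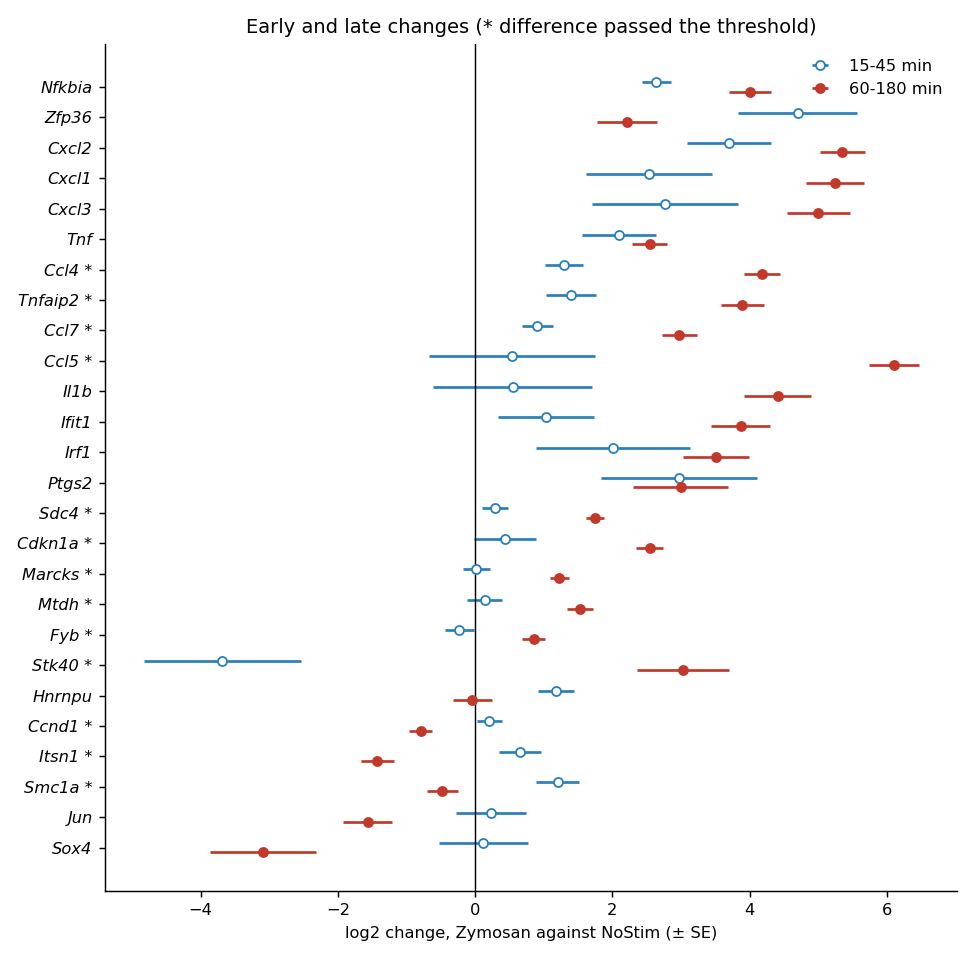
Log2 change, Zymosan against NoStim, at 15 to 45 min and at 60 to 180 min for chosen genes among those tested at both, with bars of 1 SE. An asterisk marks a called difference. Ccl5 lies at 0.53 early and 6.10 late, and Nfkbia at 2.64 and 4.01.

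The same comparison within each plate asked whether the response stood under each pretreatment. It called 37 genes higher on the DMSO plate (0.655%) and 2 lower, 42 on the dCA plate (0.743%) and 2 lower, and 52 on the BRD-6989 plate (0.92%) and 1 lower. Of the 20 largest rises, 11, 14 and 12 were called within the DMSO, dCA and BRD-6989 plates. Ccl5 rose by 5.72 ± 0.62, 5.75 ± 0.59 and 7.16 ± 0.68, and Ccl4 by 4.31 ± 0.48, 3.89 ± 0.45 and 4.36 ± 0.46, in the same order of plates. Ifit1 rose by 4.21 ± 0.80, 3.37 ± 0.74 and 4.19 ± 0.82.

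The difference of the response between an inhibitor plate and the DMSO plate was called for no gene. In edgeR 0 of 5653 passed for dCA (0%) and 0 for BRD-6989 (0%), with 389 and 371 at an unadjusted p under 0.05, while DESeq2 called 8 and 3. The 2 doses differ, so the inhibitors were not set against each other. For dCA the difference was 0.04 (95% interval -1.64 to 1.71) for Ccl5, 0.29 (95% interval -1.99 to 2.57) for Cxcl1 and -0.84 (95% interval -2.98 to 1.29) for Ifit1. For Il1b it was 2.03 (95% interval -0.34 to 4.40), and for Nfkbia 1.30 (95% interval 0.05 to 2.55, adjusted p = 0.720). The intervals of Ccl5, Cxcl1 and Ifit1 reach past 1 in both directions on the log2 scale, so they do not show that the plates responded alike. For BRD-6989 the difference was 1.77 (95% interval 0.50 to 3.04) for Nfkbia, 1.46 (95% interval 0.25 to 2.66) for Tnf and -4.01 (95% interval -7.56 to -0.46) for Ptgs2. Each of the 3 had an adjusted p of 0.715. For Ccl5, Cxcl1, Ifit1 and Il1b the BRD-6989 difference was 1.44, -0.91, -0.02 and 1.33, each with a 95% interval reaching both sides of 0. Over the 129 rises the difference was above 0 for 80 under dCA (median 0.41, all genes 0.03) and for 85 under BRD-6989 (median 0.52, all genes 0.01). Both differences share the DMSO wells. Ccnd2, a cyclin that drives entry into the cell cycle, had one of the 5 smallest p-values for dCA. Its change was 0.29 ± 0.43 on the DMSO plate, 2.74 ± 0.48 on the dCA plate and 2.59 ± 0.50 on the BRD-6989 plate (dCA difference 2.45, adjusted p = 0.233). Maf was another, at -1.34 ± 0.26 on the DMSO plate and 0.02 on the dCA plate (adjusted p = 0.233).

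Zymosan was next set directly against Pam3cys, a synthetic lipopeptide that also acts through TLR2, in the 15 wells of each at 60 to 180 min. Interferon-induced genes stood higher with Zymosan. Ifit1 held 0, 56.0 and 497 CPM with Pam3cys, a range that overlapped that of Zymosan while the medians were 56.0 and 946 CPM (4.13 ± 0.54 log2, adjusted p = 5.19e-05). Rsad2 held 99.8, 317 and 616 CPM with Pam3cys and was higher with Zymosan in all 15 pairs (3.53 ± 0.44, 2.75e-05). Cmpk2 was higher by 3.28 ± 0.46, the RNA sensor Ifih1 by 2.83 ± 0.53 and Iigp1, an immunity-related GTPase, by 4.88 ± 0.90. In all, 33 of 5481 genes were higher (0.602%) and 10 lower (0.182%). The interferon list gave 10 higher and 0 lower of 43 tested, with a median of 1.57 against -0.05 for all genes.

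Among the shared inflammatory genes the size of the difference varied. Ccl4 was at 1343, 2167 and 3474 CPM with Pam3cys and higher with Zymosan in 15 of 15 pairs (1.36 ± 0.11 log2, adjusted p = 1.66e-23). Ccl5 was higher by 2.32 ± 0.23, Il12b by 3.33 ± 0.64 and Irg1 by 2.17 ± 0.38. Cxcl2 and Cxcl3 were higher by 1.35 ± 0.31 and 1.37 ± 0.31, and Ccl3 and Ccl7 by 0.89 ± 0.16 and 0.88 ± 0.13. Cxcl1, Il1b, Tnf, Nfkbia and Icam1 did not pass (0.53, 0.78, 0.77, 0.34 and 0.30, the smallest adjusted p being 0.061 for Nfkbia). In the NF-kB list 0 of 21 tested were called. Genes lower with Zymosan included Lpl, lipoprotein lipase (-0.62 ± 0.12), Cd36 (-0.79 ± 0.22), the TNF receptor Tnfrsf1b (-0.74 ± 0.20) and the methyltransferase Prmt1 (-3.38 ± 0.78, 5 against 63 UMI). Of the 33 genes higher with Zymosan, 27 were also called higher against NoStim, a comparison that shares the Zymosan wells. Without the BRD-6989 plate 23 genes were called, and without the wells of 180 min 25.

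Against TDB more genes were called, and they included the inflammatory ones. Il1b had 9 UMI over the 15 TDB wells and 304 with Zymosan (4.62 ± 0.53 log2, adjusted p = 3.94e-11). Ccl4 was at 318, 630.1 and 1073 CPM with TDB, below every Zymosan well (3.12 ± 0.12, 2.21e-54). Cxcl1 was higher by 3.53 ± 0.36, Tnf by 3.01 ± 0.28, Nfkbia by 2.12 ± 0.19 and Il12b by 4.91 ± 0.75. The phosphatase gene Dusp2 had 51 UMI with Zymosan and 0 with TDB, at least 17.2-fold higher. The acute phase gene Saa3 had 59 and 0, at least 19.9-fold higher. Both passed the filter on low counts only through their Zymosan UMI. In all, 104 of 5562 genes were higher (1.87%) and 12 lower (0.216%), and 80 of the 104 were also called higher against NoStim. The interferon list gave 13 higher and 0 lower of 43 tested (median 1.15), and the CC chemokine list 7 and 0 of 10. Lgmn, a lysosomal protease, was among the 12 lower (-0.91 ± 0.26). Without the BRD-6989 plate 61 genes were called, and without the dCA plate 70. Column of the plate and stimulus cannot be told apart in either comparison, and the labels give no concentration of a stimulus.

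**Figure D4:**
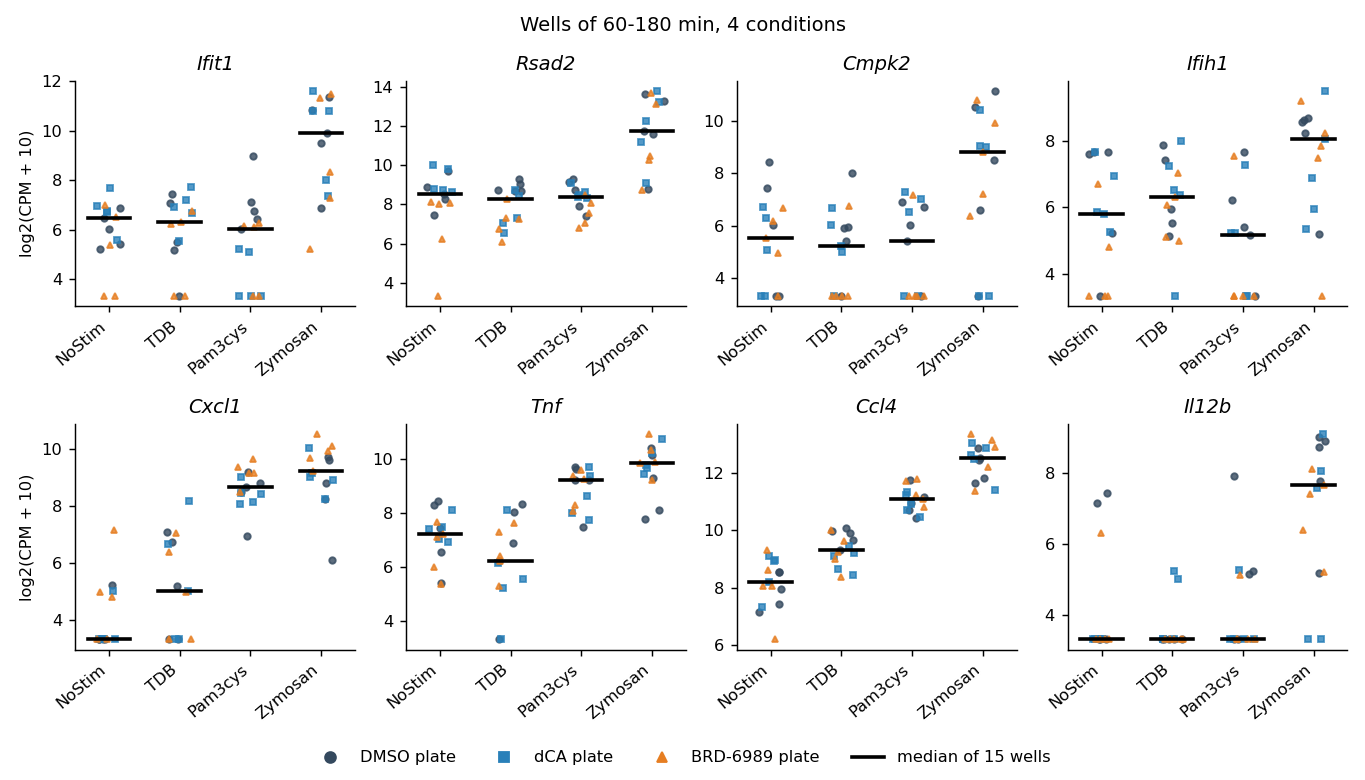
Levels of 8 genes as log2(CPM + 10) in the 15 wells each of NoStim, TDB, Pam3cys and Zymosan at 60 to 180 min (points), with the median as a bar. For Ifit1 and Rsad2 the Pam3cys medians (56.0 and 317 CPM) lie near those of NoStim (78.7 and 359.6 CPM), and for Cxcl1 and Tnf between NoStim and Zymosan.

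The TF-seq reporters gave a second readout of the same wells. Before any single reporter, the total of reporter counts rose: 5893 ± 1682 in Zymosan against 1060 ± 244 in NoStim at 60 to 180 min (mean ± SD, n = 15), higher in 15 of 15 pairs (exact permutation p = 6.10e-05, two-sided, the smallest the pairs allow). By time the Zymosan means were 1286, 1932, 2698, 3348, 5122, 6733, 6937 and 7328 counts from 15 to 180 min, while NoStim stayed between 910 and 1181. The construct named minP_58 went from a mean of 15.1 to 76.5 counts. Each reporter is therefore given first as its share of the well's reporter counts, and directions of shares hold only relative to the other reporters.

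NFkB_1 took 1.47, 4.45 and 9.42% of the counts in NoStim (lowest, median and highest of 15 wells) and 18.2, 20.5 and 27.2% in Zymosan. The ranges did not overlap, and the log2 change was 2.65 ± 0.15 (adjusted p = 7.38e-58 in edgeR over 58 reporters). On the DMSO, dCA and BRD-6989 plates it was 2.33, 2.87 and 2.76. Its share passed from 5.96% at 15 min to 12.9% at 30 min and 20.1% at 45 min, then stayed between 19.6 and 23.7%. IFNB1_44 rose from a median of 1.44 to 3.02% (1.32 ± 0.13) and IRF1_55 from 0.979 to 1.61% (0.92 ± 0.13). IRF1_55 reached its highest mean share, 2.33%, at 180 min. The log2 changes and calls came from counts scaled by TMM over the reporters, not from the shares themselves. In that fit 8 of 58 reporters were higher (13.8%) and 10 lower (17.2%). STAT4_35 was called higher (0.44 ± 0.13), though its share was higher in 7 of 15 pairs. Without the DMSO plate, or without the wells of 150 min, 11 in all were called.

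The lower shares depended on the scale. NRF2_4 took 2.09, 4.19 and 5.35% in NoStim and 0.75, 1.34 and 2.42% in Zymosan, lower in 15 of 15 pairs (-1.29 ± 0.10 log2), and AP1_33 5.20, 7.26 and 9.96% and 1.66, 3.67 and 6.66% (-0.74 ± 0.13). CLOCK_30 and TFEB_28 were at -0.70 ± 0.09 and -0.57 ± 0.09. Scaled instead to the well's UMI without Rn45s, all 58 reporters were called higher (median change 2.25), and these 4 turned to 0.94, 1.48, 1.54 and 1.66. With the reporter total alone and no TMM, 3 were higher and 23 lower, with a median change of -0.24 against 0.01 in the fit with TMM. NFkB_1 was higher on each of the 3 scales (2.65, 4.89 and 2.40). No reporter's response was called different between an inhibitor plate and DMSO: 0 of 58 for dCA (0%) and 0 for BRD-6989 (0%), with 5 and 7 at an unadjusted p under 0.05 and 0 in DESeq2.

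**Figure D5:**
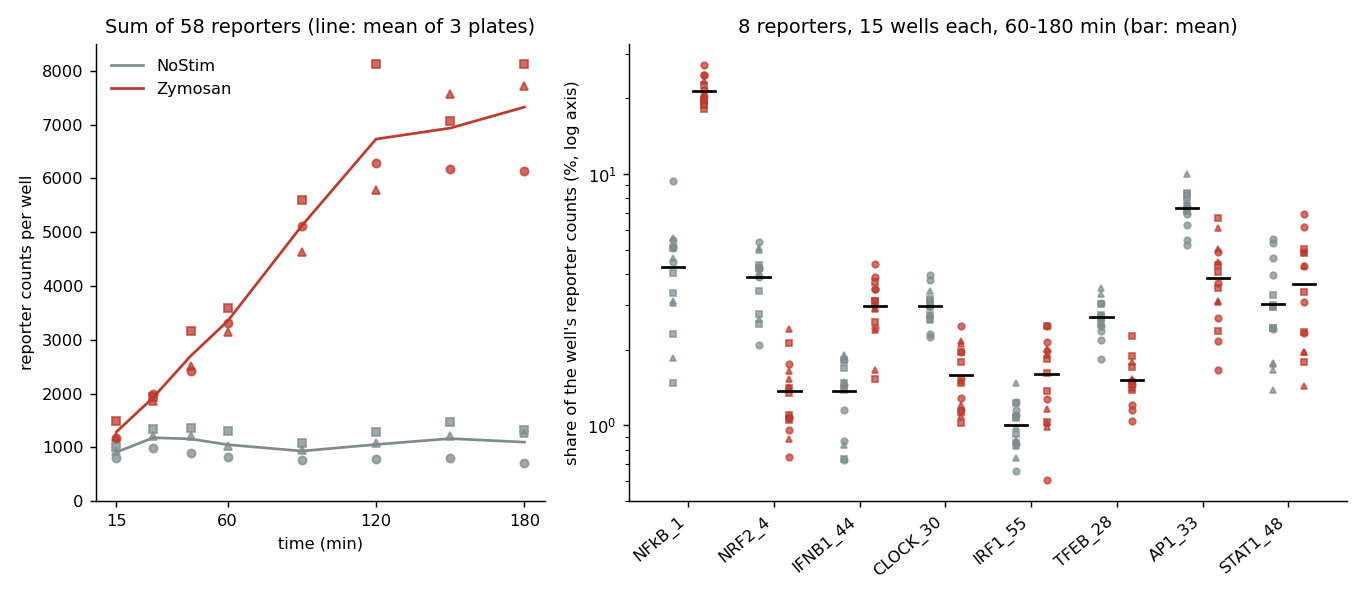
Reporter counts per well against time (left) and the share of 8 reporters in the 15 Zymosan and 15 NoStim wells of 60 to 180 min on a log axis (right). The total climbs in Zymosan wells to 7328 at 180 min, and NFkB_1 shares of 18.2 to 27.2% lie above all NoStim wells.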

How the data were processed

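BMDMs were read by 3' digital gene expression and TF-seq in 288 wells. The deposited tables hold whole-number counts: UMI counts and total read counts per gene and counts per reporter. The submitters' processing notes name BWA, edgeR and mm10, with no versions. The authors' normalized reporter table held the same values as the counts and was not used.

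Groups came from the titles, with 15 Zymosan and 15 NoStim wells at 60 to 180 min and 9 of each at 15 to 45 min. UMI counts were tested in edgeR 4.0.16 (R 4.3.3, limma 3.58.1; quasi-likelihood test, TMM, plate and time as additive blocks), over genes averaging 1 UMI per well or more. Rn45s, 22.9 to 68.3% of UMI, was left out of library sizes and tests. Benjamini-Hochberg adjustment ran over all genes tested. An SE is the size of the log2 change divided by the square root of its F statistic. Library measures used exact sign-flip permutation over pairs (SciPy 1.17.1). The fits were tested on simulated data.

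Named genes were the 20 largest rises and 10 largest falls called, averaging 2 UMI per well or more in the higher group, with the direction in 12 of 15 pairs, up to 4 called members each way of each of 20 lists, and the largest calls of each other comparison. Genes outside that rule, such as those at 0 UMI in 1 group or sharing promoter matches, were chosen after their values were seen. The members and lists were chosen with earlier results of these data known. Of 106 named genes 102 matched RefSeq by symbol and 4 by an older symbol. Each Zymosan well pairs with the NoStim well of its plate and time by title. Alternatives were DESeq2 1.42.0, total read counts, other filters and scalings, Rn45s as a covariate, the pair as a block and the leaving out of each plate, time or pair.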

Additional observations from a re-analysis of the deposited data

Results flagged for a closer look

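For 14 genes the Zymosan response at 60 to 180 min differed from that at 15 to 45 min in edgeR's test of the difference itself (adjusted p under 0.05, 9 early and 15 late wells a side). Values are late minus early changes on the log2 scale. The difference was 5.17 for the chemokine Ccl5, 2.83 for Ccl4 and 2.05 for Ccl7. It was 2.50 for Tnfaip2, 2.09 for the cell cycle inhibitor Cdkn1a, 1.44 for the proteoglycan Sdc4, 1.37 for Mtdh, 1.18 for the actin-linked Marcks and 1.06 for the adaptor Fyb. For the kinase-like Stk40 it was 6.70, with 1 UMI in early Zymosan wells against 23 in NoStim. The difference was below 0 for 4 genes. It was -2.13 for the scaffold Itsn1, -1.69 for the cohesin subunit Smc1a and -1.02 for the cyclin Ccnd1. For the cell cycle factor E2f4 it was -5.83, with 25 UMI in early Zymosan wells and 0 in NoStim.

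The DMSO Zymosan well of 15 min stood apart, and leaving out its pair was an alternative chosen after seeing the data. Of the 14, 10 were then still called. Ccnd1, Fyb and Tnfaip2 no longer passed (adjusted p of 0.0763, 0.0539 and 0.0539), E2f4 no longer met the filter on low counts, and Ccl5 was at 6.71.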

How the results depend on the processing

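Counts of called genes moved more than directions. Late against NoStim, 39, 44 and 53 genes were called within the DMSO, dCA and BRD-6989 plates and 92 to 182 with a plate, time or pair left out, against 152. DESeq2 called 185 and total read counts and the other settings stayed within 1.5 times. With each plate and time pair as a block the counts were 139 late, 4 early, 38 against Pam3cys, 102 against TDB and 19 reporters. Dusp6, Pisd-ps3 and Dusp7 lost their call in that paired fit (adjusted p of 0.0617, 0.0551 and 0.0608). The early count of 4 became 13 in DESeq2, 0 with read counts, 8 with plate as the only block and 1 to 28 with a plate, time or pair left out. The late minus early count of 14 became 31 in DESeq2, 8 with read counts, 24 with no filter, 9 with Rn45s as a covariate and 3 to 25 with a part left out. The inhibitor differences gave 8 (dCA) and 3 (BRD-6989) in DESeq2, and 0 to 2 for BRD-6989 with a part left out. Against Pam3cys 18 genes were called from read counts and 23 to 57 with a part left out, and against TDB 61 from read counts and 61 to 139. Of 58 reporters 58 were called when scaled to UMI, which reversed NRF2_4 (0.94), CLOCK_30 (1.54), TFEB_28 (1.66) and AP1_33 (1.48), and 11 to 17 with a part left out. Of the 20 named rises 4 lost their call in at least 1 setting over all plates, and of the 10 named falls 8. The causes were not tested. At 1 UMI worth a median of 26.8 CPM, genes with few UMI carry counting error that limits any smaller change.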

Other observations

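Other genes also rose late (60 to 180 min, edgeR, n = 15 wells a side). Edn1, 1 of the 7 rises of the cytokine list and the precursor of the vasoactive peptide endothelin-1, had 92 UMI in Zymosan wells and 1 in NoStim (log2 4.85 ± 0.85). Cdkn1a, the cell cycle inhibitor p21, rose by 2.55 ± 0.20, Mtdh by 1.53 ± 0.19 and Kdm6b, a histone H3 demethylase, by 3.56 ± 0.73. Kdm6b was not called without the BRD-6989 plate (adjusted p = 0.0514). The cyclin Ccnd1 fell by 0.79 ± 0.17 and was lower in 15 of 15 pairs.

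The reporter named ISRE_54 took a mean of 2.18% of reporter counts in Zymosan wells at 60 min and 4.69% at 180 min (n = 3 each). In NoStim it took 3.37% and 2.82%. By share, the Zymosan wells lay below the NoStim wells at 60 min and above them at 180 min. The mean reporter total at 60 min was 3348 counts in Zymosan and 1051 in NoStim. The lower share therefore holds only relative to the other reporters and is not a fall in counts.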
